A study of Mus musculus with 8 samples.

Results

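G-protein-coupled receptors are the sensors through which gut hormones, nerves, nutrients and neighbouring islet cells adjust insulin release. Receptors coupled to Gs raise cyclic AMP and amplify glucose-stimulated secretion, receptors coupled to Gq release calcium from internal stores through phospholipase C, and receptors coupled to Gi lower cyclic AMP and restrain secretion. The 10 receptor genes examined here were Glp1r, Gipr, Gcgr, Ffar1, Adra2a, Gpr119, Galr1, Chrm3, Sstr3 and Casr. They were chosen by symbol, and each matched 1 row among the 53012 Ensembl identifiers of the count table. All 10 passed the filter on low counts, which left 15474 genes to be tested.

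RNA was sequenced from isolated islets of 4 βIgf1r mice, labelled CTRL, and 4 βIgf1rKD mice, labelled KD, with 1 library per mouse. All mice carried 2 floxed alleles of Igf1r (Igf1r flox/flox), were 17 months old and included both sexes in each group. The βIgf1rKD mice were Ins1-CreERT2+/- and received tamoxifen at 0.075 mg/g body weight on 5 consecutive days, while the βIgf1r mice were Ins1-CreERT2-/- and received corn oil, so that Cre, tamoxifen and loss of the floxed exon cannot be told apart in this comparison. Islets were taken 7 days after the last injection. The methods describe the driver of the Cre as a rat insulin promoter, whereas the genotype is written Ins1-CreERT2, and in either case recombination is aimed at β-cells while the islet preparation also holds other cells. In bulk RNA of this kind, fewer cells of a type and less RNA per cell cannot be told apart.

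Total counts per mouse ranged from 21634080 to 31202154 in βIgf1r and from 23826023 to 42391328 in βIgf1rKD islets. Igf1r itself, counted over the whole gene and not over the floxed exon 3, lay at 46.8 to 60.8 CPM (counts scaled to a common library size, after TMM factors that also correct for library composition) in βIgf1r and at 46.9 to 57.8 CPM in βIgf1rKD mice (log2 fold change -0.08 ± 0.11, SE; exact two-sided permutation test, p = 0.543). Islet hormone RNA was abundant, with Ins2 at 115499 ± 13021 CPM and Gcg at 21056 ± 11546 CPM (SD, n = 4) in βIgf1r mice. No marker of the β, α, δ or PP cell lists was at 0 counts in any mouse. The same held for the other marker lists, acinar and endothelial among them, so detection alone does not set islet cells apart. Acinar RNA was present as well. Of all counts, 2.50% to 18.4% in βIgf1r and 5.26% to 20.7% in βIgf1rKD mice fell on 15 acinar markers. The log2 fold change of these markers was positive in 15 of 15, with a median of 0.85, and edgeR's test gave 0 of them at an unadjusted p under 0.05. The lists of 10 α-cell, 7 δ-cell and 4 PP-cell markers also gave 0.

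Per kilobase of exon, Glp1r was the most abundant of the 10 receptors and Galr1 the least. Levels between genes were compared as CPM per kilobase, with the length of all exons of the gene in GENCODE M21. Glp1r reached 113 ± 12.8 CPM per kilobase (SD, n = 8 mice), 21.1 times the 5.32 ± 1.04 of Galr1 and higher than 99.2% of all genes with a count. Sstr3 followed at 46.0 ± 5.97, Ffar1 at 32.5 ± 2.24 and Adra2a at 16.5 ± 2.45 CPM per kilobase. The first 3 places were clear, since in 8 of 8 mice Glp1r lay above Sstr3, Sstr3 above Ffar1 and Ffar1 above Adra2a. Adra2a and Gipr, at 15.6 ± 2.71, were not separated, with Adra2a above Gipr in 6 of 8 mice and a ratio of means of 1.06. Casr was next at 12.7 ± 2.07 CPM per kilobase and lay above Gpr119, at 8.47 ± 1.83, in 8 of 8 mice. Gpr119, Gcgr (6.22 ± 1.27), Chrm3 (5.66 ± 0.585) and Galr1 formed the low end, where each receptor exceeded the next in only 6 of 8 mice. The 3 class B receptors bind the related peptides GLP-1, GIP and glucagon. They ranked 1 (Glp1r), 5 (Gipr) and 8 (Gcgr) of the 10, with Glp1r far above Gipr and Gipr above Gcgr.

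In GENCODE M21 genes on the opposite strand overlap Glp1r and Gcgr, several genes overlap Chrm3, and Gm25902, on the same strand, overlaps Casr. These overlaps are of whole gene spans, and whether exons overlap was not examined. The libraries were stranded, but whether the counting used strand is not given in the sources used here. Whether any reads of these neighbours were counted for the receptors is therefore not known.

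**Figure D1:**
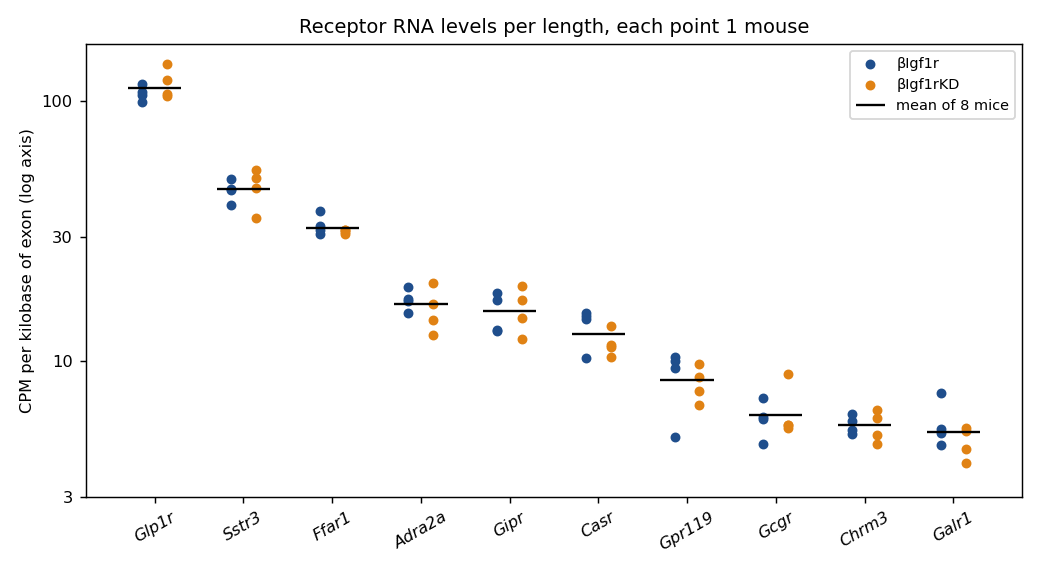
Level of each receptor in CPM per kilobase of exon (log axis), with 1 point per mouse, βIgf1r in blue and βIgf1rKD in orange, and a bar at the mean of 8 mice. Glp1r stands apart from the others at 98.9 to 139 CPM per kilobase, and the points of both groups overlap for each receptor.

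The starts of these genes differed in sequence as well as in level. RefSeq promoter windows on GRCm38.p6, from 250 bases before to 50 bases after the start, were matched for 8 of the 10 receptors in 9 windows. The number of CpG dinucleotides ranged from 1 in a window of Sstr3 to 34 in that of Gcgr, against a median of 7 over 32851 windows. Glp1r and Gcgr, related receptors that ranked 1 and 8 of the 10 by level, both had CpG-rich starts with 29 and 34 CpG. Gcgr lay low only among these receptors, and its level was higher than that of 82.9% of all genes with a count. For both genes 200 bases, from 250 to 51 bases before the RefSeq start, are shown with CpG in capitals. Gene positions given below are those of GENCODE M21, whose starts differ from the RefSeq starts for both genes. The Glp1r stretch is chr17:30901617-30901816 and the Gcgr stretch chr11:120530477-120530676, both on the plus strand and written 5′ to 3′.
Glp1r: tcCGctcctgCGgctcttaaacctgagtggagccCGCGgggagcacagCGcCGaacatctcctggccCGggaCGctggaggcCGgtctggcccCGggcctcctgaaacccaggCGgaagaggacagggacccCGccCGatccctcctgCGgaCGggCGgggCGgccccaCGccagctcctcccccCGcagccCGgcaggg
Gcgr: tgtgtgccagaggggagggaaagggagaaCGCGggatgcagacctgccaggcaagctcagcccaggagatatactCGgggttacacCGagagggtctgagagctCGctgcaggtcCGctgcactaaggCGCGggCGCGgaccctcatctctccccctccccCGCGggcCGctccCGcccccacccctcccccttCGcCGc

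The windows were also searched on both strands for TGACG, the half-site of the cAMP response element through which cyclic AMP acts on transcription. It was found in 3 of the 9 receptor windows, those of Adra2a, Gpr119 and 1 window of Sstr3, and in 20.8% of all windows. TATAAA was found in 1 of 9, that of Adra2a, against 13.6% of all windows, and TAATTA, a core read by homeodomain factors, in 0 of 9 against 5.29%.

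None of the 10 receptors differed between the groups beyond the spread of the mice. Tested with edgeR (quasi-likelihood), 0 of 10 reached an unadjusted p under 0.05, against 4.12% of all genes tested, of which 2.23% were higher and 1.89% lower in βIgf1rKD islets. At an adjusted p under 0.05 there were 0 of 10, against 0% of all genes. DESeq2 and limma-voom also gave 0 of 10 at an unadjusted p under 0.05. The groups overlapped in every receptor, whereas 2.22% of all genes had groups without overlap, 0.963% with βIgf1rKD higher and 1.25% with βIgf1rKD lower. Their log2 fold changes, 4 positive and 6 negative, ran from -0.23 to 0.13 (median -0.05), and the median over all genes was 0.01. With library totals only and no TMM factors all 10 were negative, from -0.43 to -0.06, and the median over all genes moved to -0.19, so directions are given relative to the other genes. The 95% intervals set the limits on what could have been missed, and across the 10 receptors they ran from 0.665-fold to 1.42-fold, so that a change to 0.5 or 2 times the βIgf1r level lay outside the interval of each receptor.

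Glp1r encodes the receptor for the incretin GLP-1, a Gs-coupled class B receptor and the target of GLP-1 agonist drugs, and lies on chromosome 17 from 30901817 to 30940791 (GRCm38, plus strand). It was at 678, 628, 575 and 613 CPM in βIgf1r mice M148, M151, M152 and M153, and at 701, 808, 609 and 618 CPM in βIgf1rKD mice M145, M146, M149 and M150. M145 and M146 were higher than all βIgf1r mice, and M149 and M150 fell among them. The fold change was 1.10 (95% interval 0.893 to 1.35; edgeR, adjusted p = 0.987; exact permutation test, two-sided, p = 0.286). The log2 fold change of 0.13 was 0.04 without M146 and 0.23 with the acinar score as a covariate, in neither case at an unadjusted p under 0.05. With library totals only the log2 fold change of Glp1r was -0.06, above the median of -0.19 over all genes under that scaling.

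Gipr encodes the receptor for GIP, the other incretin, which acts through Gs in β-cells and α-cells (chromosome 7, 19156061 to 19166127, minus strand). Its levels were 63.5, 45.6, 59.7 and 45.8 CPM in the βIgf1r mice, in the order given above, and 50.9, 67.7, 59.7 and 42.5 CPM in the βIgf1rKD mice. Each group held mice near the bottom and near the top, and both the highest and the lowest of the 8 values, those of M146 and M150, belonged to βIgf1rKD mice. The fold change was 1.03 (95% interval 0.800 to 1.32; edgeR, adjusted p = 0.994), and its sign turned without M146, M151 or M153, to a log2 fold change of -0.08 in the first case.

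Gcgr encodes the glucagon receptor, through which α-cell glucagon raises cyclic AMP in β-cells (chromosome 11, 120530699 to 120538986, plus strand). It was at 18.8, 12.6, 15.7 and 15.9 CPM in βIgf1r and at 14.8, 23.3, 14.9 and 14.4 CPM in βIgf1rKD mice. Mouse M146 alone lay above the βIgf1r range, and the other 3 βIgf1rKD mice lay close together near 14.8 CPM. The fold change of 1.07 (95% interval 0.808 to 1.42; edgeR, adjusted p = 0.988) depended on that mouse, without which the log2 fold change was -0.10.

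**Figure D2:**
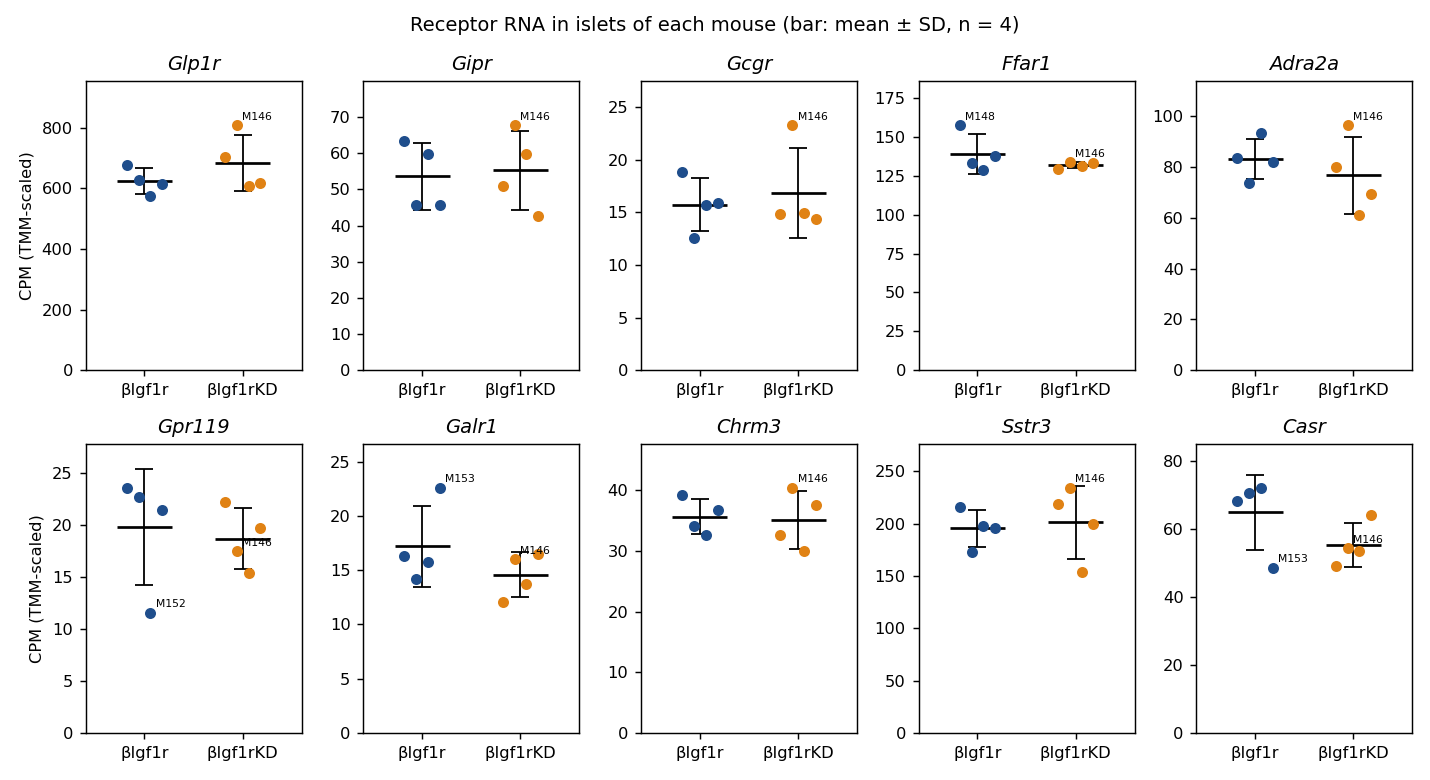
CPM of each receptor in each mouse (linear axis from 0), with βIgf1r in blue, βIgf1rKD in orange, and the mean and SD of 4 mice in black. The groups overlap in all 10 panels, and M146 has the highest point in 6 of them, among them Glp1r at 808 CPM and Gcgr at 23.3 CPM.

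The balance between the 3 class B receptors was compared within each library, where library size and RNA of other cells cancel if the cells lack both genes. The log2 ratio of Glp1r to Gipr was 3.55 ± 0.25 (SD, n = 4) in βIgf1r and 3.64 ± 0.23 in βIgf1rKD mice, a difference of 0.09 (exact two-sided permutation test, p = 0.600). Glp1r to Gcgr was 5.31 ± 0.22 against 5.36 ± 0.19, a difference of 0.04 (exact permutation test, p = 0.743), and Gipr to Gcgr was 1.76 ± 0.18 against 1.72 ± 0.22, a difference of -0.05 (exact permutation test, p = 0.800). These ratios are of CPM, not per length. In all 3 pairs compared the difference was smaller than the spread within either group, and with 4 against 4 mice the smallest p is 0.0286.

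Gpr119, a Gs-coupled receptor for lipid amides present on β-cells and gut endocrine cells, is X-linked (48667979 to 48674478, minus strand). It was at 23.5, 22.6, 11.5 and 21.4 CPM in βIgf1r and at 22.2, 17.4, 15.4 and 19.7 CPM in βIgf1rKD mice. Its spread was the widest of the 10, with a coefficient of variation of 21.6% over the 8 mice, and came largely from M152 of the βIgf1r group. The fold change was 0.943 (95% interval 0.677 to 1.31; edgeR, adjusted p = 0.990).

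Among the receptors that act through Gq, Ffar1 encodes GPR40, the long-chain fatty acid receptor of β-cells (chromosome 7, 30857390 to 30861564, minus strand). It was at 158, 133, 129 and 138 CPM in βIgf1r and at 129, 134, 131 and 133 CPM in βIgf1rKD mice. The βIgf1rKD values were the most even of any receptor, with an SD of 1.98 CPM, and all 4 lay inside the βIgf1r range. The fold change was 0.946 with the narrowest interval of the 10, 0.831 to 1.08 (edgeR, adjusted p = 0.987), and its log2 fold change of -0.08 was -0.02 without M148.

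Chrm3 encodes the M3 muscarinic receptor, through which acetylcholine drives both insulin release and acinar enzyme secretion (chromosome 13, 9875486 to 10360847, minus strand). It was at 39.3, 34.0, 32.7 and 36.7 CPM in βIgf1r and at 32.5, 40.4, 29.9 and 37.6 CPM in βIgf1rKD mice. The 2 groups covered nearly the same range, and the fold change was 0.985 (95% interval 0.834 to 1.16; edgeR, adjusted p = 0.995). The 3 mice with the highest acinar marker scores, M149 and M145 of the βIgf1rKD group and M152 of the βIgf1r group, had the 3 lowest Chrm3 levels. The same 3 mice also had the lowest β-cell marker scores, at -0.68, -0.30 and -0.49.

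Casr encodes the calcium-sensing receptor, which couples to Gq and Gi (chromosome 16, 36493696 to 36562141, minus strand). It had the smallest p of the 10. It was at 68.2, 70.6, 72.1 and 48.5 CPM in βIgf1r and at 49.0, 54.3, 53.6 and 64.2 CPM in βIgf1rKD mice. Of the βIgf1r mice 3 lay above every βIgf1rKD mouse, and M153 lay below them all. The fold change was 0.853 (95% interval 0.693 to 1.05; edgeR, unadjusted p = 0.117, adjusted p = 0.987), and without M153 the log2 fold change was -0.35 with an unadjusted p of 0.00746 and an adjusted p of 0.999 by edgeR. Endothelial markers were also negative in log2 fold change, 11 of 11. By edgeR 6 of them had an unadjusted p under 0.05, against 4.12% of all genes, and 0 an adjusted p under 0.05. Their summed level was 482 to 605 CPM in βIgf1r and 432 to 481 CPM in βIgf1rKD mice. M153, the mouse with the lowest Casr level, had an endothelial score of 0.81. With that score as a covariate the log2 fold change of Casr was -0.30. The part of endothelial cells in the level of Casr was not tested further. Every βIgf1r mouse had a higher endothelial score than every βIgf1rKD mouse, so that this score and the group cannot be told apart.

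Of the Gi-coupled receptors, Adra2a encodes the α2A-adrenergic receptor through which adrenaline and noradrenaline suppress insulin release (chromosome 19, 54044151 to 54048982, plus strand). It was at 83.5, 73.8, 93.3 and 82.0 CPM in βIgf1r and at 79.9, 96.4, 60.9 and 69.3 CPM in βIgf1rKD mice. Mice M149 and M150 fell below the βIgf1r range and M146 rose above it, and the fold change was 0.922 (95% interval 0.743 to 1.14; edgeR, adjusted p = 0.987). Its log2 fold change of -0.12 was -0.02 without M149 and -0.25 without M146.

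Sstr3 encodes a somatostatin receptor found on the primary cilia of β-cells, through which δ-cell somatostatin inhibits secretion (chromosome 15, 78537008 to 78544685, minus strand). It was at 216, 173, 198 and 196 CPM in βIgf1r and at 218, 234, 154 and 200 CPM in βIgf1rKD mice. The βIgf1rKD mice lay on both sides of the βIgf1r range, and the fold change was 1.03 (95% interval 0.834 to 1.27; edgeR, adjusted p = 0.992). Its sign was not stable, since the log2 fold change was -0.04 with Xist as a covariate for the mix of sexes, -0.14 with library totals only and -0.04 without M146.

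Galr1 encodes a receptor for galanin, a neuropeptide that inhibits insulin release. It was at 16.3, 14.2, 15.7 and 22.6 CPM in βIgf1r and at 12.1, 16.0, 13.7 and 16.5 CPM in βIgf1rKD mice. Mice M145 and M149 lay below every βIgf1r mouse, and M153 of the βIgf1r group lay well above the other 7 mice. The fold change was 0.852 (95% interval 0.665 to 1.09; edgeR, adjusted p = 0.987; exact two-sided permutation test, p = 0.314), and the log2 fold change of -0.23 was -0.08 without M153.

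**Figure D3:**
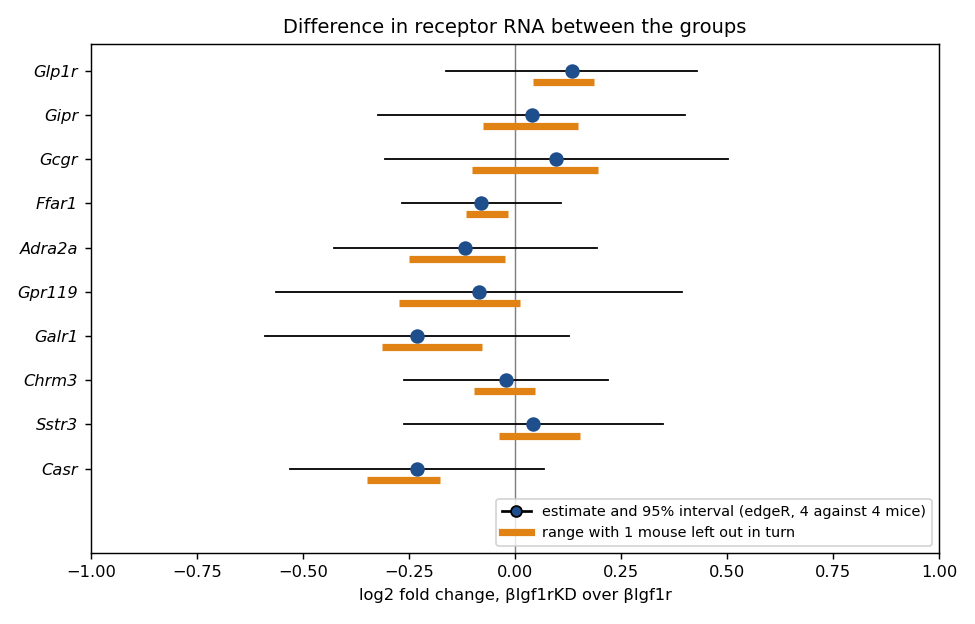
Log2 fold change of each receptor, βIgf1rKD over βIgf1r, with the 95% interval of edgeR's fit in black and the range of the estimates with 1 mouse left out in turn in orange. Every interval includes 0, and the estimates with a mouse left out stay on 1 side of 0 for Glp1r, Ffar1, Adra2a, Galr1 and Casr.

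Relative to β-cell markers the receptors again did not separate the groups. For each mouse the log2 CPM of a receptor was set against the mean log2 CPM of 12 β-cell markers, among them Ins2, Iapp, Mafa and Slc2a2. The 10 differences between groups ranged from -0.29 for Galr1 to 0.06 for Glp1r. The smallest p was that of Chrm3, at -4.80 ± 0.04 (SD, n = 4) in βIgf1r and -4.89 ± 0.05 in βIgf1rKD mice, where 3 of 4 βIgf1rKD mice lay below every βIgf1r mouse (difference -0.09; exact two-sided permutation test, p = 0.0571). Its sign turned with the markers used. Against Iapp, Slc30a8 and G6pc2 alone it was 0.07 (p = 0.514 by the exact permutation test). The differences of Galr1, at -0.29, and Casr, at -0.28, gave p = 0.114 and p = 0.200 by the same exact permutation test. Against the 3 markers alone they were -0.13 and -0.12, and Glp1r was at 0.22 (exact permutation test, p = 0.114). These p-values are not adjusted over the 10 receptors. Leaving out 1 mouse brought 3 of the differences to the smallest p the exact permutation test allows, 0.0286, which were Galr1 without M151 (-0.36), Chrm3 without M150 (-0.11) and Casr without M153 (-0.43). They are 3 of the many tests made of all 10 receptors with each mouse left out in turn. No adjustment was made for that number. The β-cell markers themselves were split, with 7 of 12 positive and 5 negative in log2 fold change and 0 at an unadjusted p under 0.05 by edgeR.

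Differences between animals ran through several receptors at once. In the βIgf1rKD group, M146 was the mouse with the most RNA of 6 of the 10 receptors, Glp1r, Gipr, Gcgr, Adra2a, Chrm3 and Sstr3, and its median z-score over the 10 was 1.29. Mouse M148 of the βIgf1r group lay above the mean of the 8 mice in 10 of 10. The lowest median, -0.67, was that of M149 of the βIgf1rKD group, which lay above the mean only for Gipr and was lowest of all mice in Adra2a, Chrm3 and Sstr3. The β-cell marker score followed the same animals at the extremes, at 0.86 in M146, 0.38 in M148 and -0.68 in M149, and their acinar marker scores were -0.66, -1.54 and 0.96. The part of cell makeup in these levels was not tested beyond the covariate fits and the ratios to β-cell markers.

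**Figure D4:**
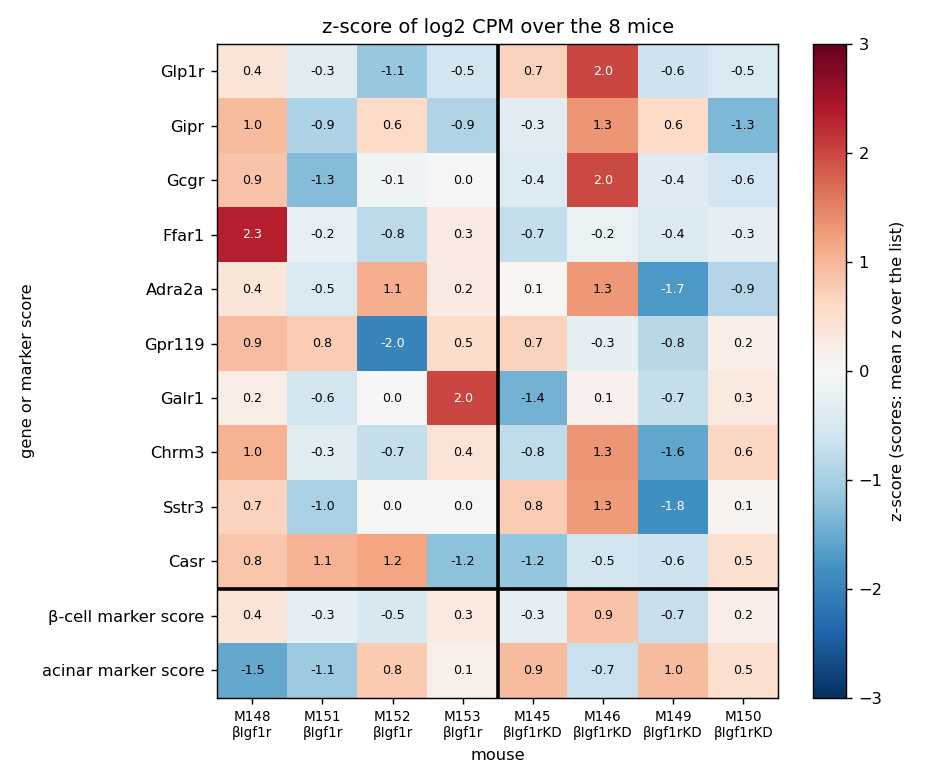
Z-score of log2 CPM over the 8 mice for each receptor (rows) and mouse (columns, βIgf1r left and βIgf1rKD right of the line), with the β-cell and acinar marker scores, the mean z-score over each list, in the last 2 rows. M148 is above 0 in all 10 receptor rows, M146 has values up to 2.0 for Glp1r and Gcgr, and no row has all βIgf1rKD mice on 1 side of all βIgf1r mice.

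The genes whose log2 CPM was most alike over the 8 mice were listed for the class B receptors among 15473 other genes. For Glp1r they included Pklr, the liver and red cell type pyruvate kinase (Pearson r = 0.964), and Ext1 (0.940). For Gipr they were Pkmyt1 (0.986), Ppox (0.982) and Plppr2 (0.967), and for Gcgr Coq10a (0.980), Ttc39a (0.975) and Slc25a1, the mitochondrial citrate carrier (0.966). With 8 mice and this many genes such values describe these libraries only.

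The rest of the signaling chain was examined by 7 lists, written from general knowledge but with earlier results of these data known. They held 210 genes, of which 166 were tested. By edgeR 11 of the 166, or 6.63%, had an unadjusted p under 0.05, 3 higher and 8 lower in βIgf1rKD islets, against 4.12% of all genes, and 0 had an adjusted p under 0.05. Other islet G-protein-coupled receptors gave 4 of 47 tested, with P2ry6 positive and Adora2b, S1pr1 and Calcrl negative, and a median log2 fold change of -0.02. Adora2b, an adenosine receptor coupled to Gs, went from 8.07 ± 2.01 to 5.23 ± 0.794 CPM (SD, n = 4), giving a log2 fold change of -0.62 ± 0.19 (SE). S1pr1 and Calcrl, receptors that endothelial cells are known to express, had log2 fold changes of -0.46 and -0.53, and the endothelial markers were negative as well, as given above. Their part in these values was not tested. P2ry6 was highest in M149, at 2.39 CPM, beside macrophage and leukocyte markers of which 7 of 9 were positive, with a median log2 fold change of 0.45 and a summed level of 124 to 189 CPM in βIgf1r and 141 to 293 CPM in βIgf1rKD mice. Of these markers C1qb and C1qc had an unadjusted p under 0.05 by edgeR and were also highest in M149, at 35.1 and 30.3 CPM. C1qa, which had the highest CPM of the list, was at 59.3 ± 10.2 CPM in βIgf1r and 60.0 ± 15.3 CPM in βIgf1rKD mice (SD, n = 4). The part of these markers in the level of P2ry6 was not tested.

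By CPM, which is not corrected for length, Cckar, Gpr158 and Vipr1 were the highest of these other receptors. Cckar, the cholecystokinin receptor that acinar cells express strongly in rodents, ranged from 11.3 to 57.8 CPM in βIgf1r and from 15.6 to 157 CPM in βIgf1rKD mice. Its log2 fold change was 1.47 ± 0.68 (SE; edgeR, adjusted p = 0.987), beside the positive acinar markers. Gpr158 was at 82.4 ± 10.1 and 71.7 ± 5.99 CPM, and Vipr1, a receptor for VIP and PACAP, at 61.9 ± 5.76 and 65.8 ± 7.97 CPM (SD, n = 4), and the groups overlapped in both.

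Ligands made in the islet were tested for 12 of 20 listed genes. Gcg, whose product is the ligand of Gcgr and also the precursor of GLP-1, Sst and Ppy had the highest CPM, and their log2 fold changes were -0.14 ± 0.45, -0.25 ± 0.22 and -0.29 ± 0.30 (SE). Gal, which encodes the ligand of Galr1, was the 1 gene of the list with an unadjusted p under 0.05. It was at 1.22, 2.98, 4.48 and 3.79 CPM in βIgf1r and at 16.4, 4.99, 7.26 and 16.5 CPM in βIgf1rKD mice, so that the groups did not overlap (log2 fold change 1.87 ± 0.47, SE; edgeR, unadjusted p = 0.00288, adjusted p = 0.987). Its receptor Galr1 had a log2 fold change of the opposite sign, -0.23, whose interval includes 0.

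Downstream of the receptors, groups overlapped in the genes with the highest CPM. Gnas, the Gs α subunit, was at 945 ± 73.8 and 954 ± 101 CPM, Gnao1, a Gi/o α subunit, at 335 ± 19.5 and 337 ± 34.6 CPM, and Prkar1a, a regulatory subunit of protein kinase A, at 503 ± 13.7 and 474 ± 50.6 CPM (SD, n = 4). Of 25 G protein subunits 2 had an unadjusted p under 0.05, Gnb4 and Gng3, both negative and both without overlap between the groups. Of all genes tested, 2.22% had groups without overlap, 1.25% with βIgf1rKD lower. Gnb4, a β subunit, went from 9.03 ± 0.723 to 6.53 ± 1.01 CPM. Gng3 was low throughout, with 19 to 32 counts in βIgf1r and 1 to 30 counts in βIgf1rKD mice. Its groups nearly touched, at 0.739 CPM in M150 of the βIgf1rKD group and 0.747 CPM in the lowest βIgf1r mouse. Of 42 genes of the cyclic AMP pathway 1 had an unadjusted p under 0.05, the phosphodiesterase Pde3a, at 4.30 ± 0.432 and 3.19 ± 0.453 CPM (log2 fold change -0.43 ± 0.16, SE). The groups did not overlap in Pde3a either.

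In the phospholipase C and calcium store list 2 of 25 genes had an unadjusted p under 0.05. Itpr2, an inositol trisphosphate receptor of the endoplasmic reticulum, had a log2 fold change of -0.29 ± 0.13 (SE), and Dgkb, a diacylglycerol kinase, one of -0.35 ± 0.14. The groups overlapped in Itpr2 and did not overlap in Dgkb. None of the 7 arrestins and receptor kinases had an unadjusted p under 0.05, and the groups overlapped in all of them. Grk3, Grk2 and Grk5, with the highest CPM, had log2 fold changes of -0.07, 0.07 and -0.02. Of 8 accessory and ligand-degrading genes the 1 with an unadjusted p under 0.05 was Mme, encoding neprilysin, which had 5 to 22 counts in βIgf1r and 8 to 171 counts in βIgf1rKD mice, with the highest value in M145, and without that mouse 0 genes of this list had an unadjusted p under 0.05. Dpp4, the enzyme that inactivates both incretins, was at 77.0 ± 8.45 and 70.8 ± 9.86 CPM (SD, n = 4), or -0.12 ± 0.12 (SE) in log2 fold.

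**Figure D5:**
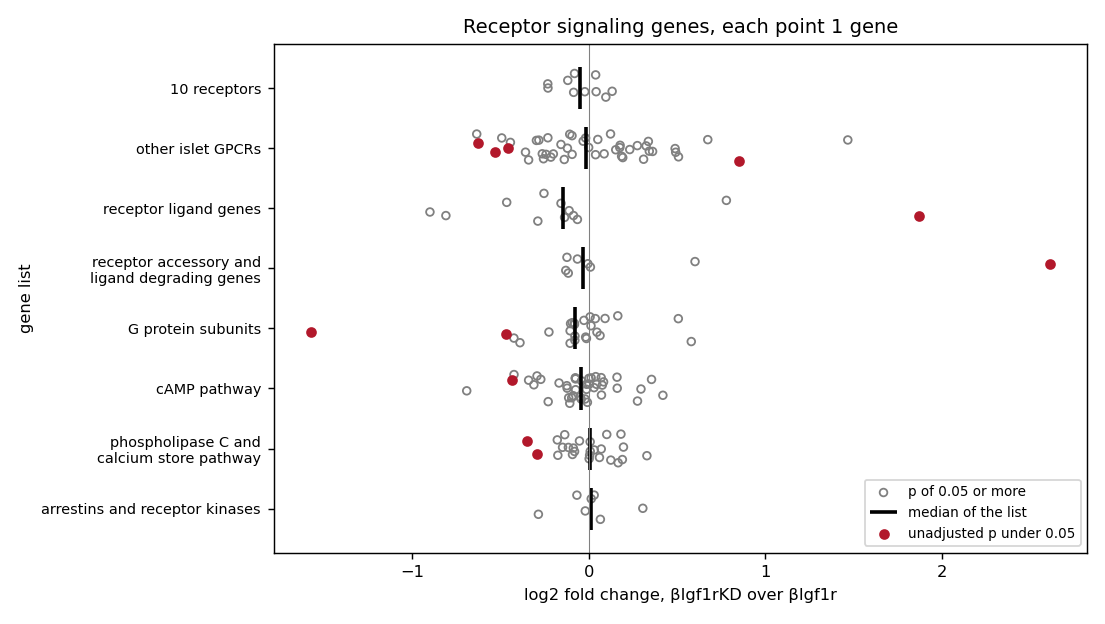
Log2 fold change, βIgf1rKD over βIgf1r, of each gene tested in the 10 receptors and the 7 lists of signaling genes, with genes at an unadjusted p under 0.05 by edgeR filled in red and the median of each list as a bar. The 10 receptors lie between -0.23 and 0.13, and Mme (2.61), Gal (1.87) and Gng3 (-1.57) lie farthest out among the red points.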

How the data were processed

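Islet RNA was purified from single mice and sequenced from stranded mRNA libraries. The authors deposited estimated counts per Ensembl gene, left unscaled and in part fractional. The submitters' processing notes list fastp, kallisto and GRCm38, and versions, counting settings and the annotation release are not given in the sources used here. Counts were rounded to whole numbers. Of 53012 identifiers 51906 had a symbol in GENCODE M21, which also gave positions and exon lengths, and the annotation behind the counts can be another. The filter of edgeR 4.0.16 (minimum count 10, at least 4 mice, minimum total 15) was applied, followed by TMM scaling and the quasi-likelihood test on all genes with Benjamini-Hochberg adjustment over all of them, in R 4.3.3. Intervals are 95% and come from the fold change and its standard error. Log2 CPM used a prior count of 2, and exact permutation tests took all 70 assignments of 4 and 4 mice. A marker score is the mean z-score of log2 CPM over the list.

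Alternatives were the tests of DESeq2 1.42.0 and of limma-voom (limma 3.58.1), RLE factors, other filters, covariates and leaving out each mouse, and library totals without TMM factors were added after seeing the data. The receptors, gene lists and tests were chosen with earlier results of these data known. Named from the 7 signaling lists were all genes at an unadjusted p under 0.05 and the 3 with the highest CPM, and for Glp1r, Gipr and Gcgr the 3 genes with the highest Pearson r, of which 1 is not reported here. Scripts were tested on simulated counts. The depth leaves at least 259 counts for each receptor in each mouse. How much of the precision is set by counting and how much by the spread between mice was not separated. Plots used matplotlib 3.10.9.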

Additional observations from a re-analysis of the deposited data

Results flagged for a closer look

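Among 26 sets of 4 mice examined, 3 had a single mouse set apart from the rest by more than Dixon's 95% limit, and 1 in 20 sets, or about 1.3, would be by chance. For Gcgr it was M146 of the βIgf1rKD group, with a log2 CPM of 4.55 beside 3.86 to 3.91 for M145, M149 and M150. For Gpr119 it was M152 of the βIgf1r group, with 3.54 beside 4.42 to 4.56. For Casr it was M153, also of the βIgf1r group, with 5.60 beside 6.09 to 6.17.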

How the results depend on the processing

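The log2 fold changes of the 10 receptors were refitted under 18 alternatives, giving 180 values from -0.43 to 0.38, of which 159 kept their sign and 21 did not. The lowest adjusted p was 0.669, and 1 value, that of Casr without M153, had an unadjusted p under 0.05. No paired analysis was possible because the mouse numbers of the 2 groups share no value. The causes of the changes below were not tested.

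Signs turned with library totals only (Glp1r -0.058, Gipr -0.14, Gcgr -0.061, Sstr3 -0.14), with the endothelial score as a covariate, which separates the groups completely, (Ffar1 0.15, Gpr119 0.031, Galr1 0.059, Chrm3 0.099), with the acinar score (Gpr119 0.13, Chrm3 0.078) and with Xist (Sstr3 -0.038). With 1 mouse left out in turn, Gipr ranged from -0.075 to 0.15, Gcgr from -0.10 to 0.20, Gpr119 from -0.27 to 0.011, Chrm3 from -0.096 to 0.048 and Sstr3 from -0.038 to 0.15, and the signs held for Glp1r (0.043 to 0.19), Ffar1 (-0.12 to -0.015), Adra2a (-0.25 to -0.023), Galr1 (-0.31 to -0.079) and Casr (-0.35 to -0.18). The number of receptors at an unadjusted p under 0.05 ranged from 0 to 1.

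Against Iapp, Slc30a8 and G6pc2 alone the differences were 0.13 for Gipr, 0.020 for Ffar1, 0.052 for Gpr119, 0.066 for Chrm3 and 0.12 for Sstr3, which turned in sign, and 0.22 for Glp1r, 0.18 for Gcgr, -0.039 for Adra2a, -0.13 for Galr1 and -0.12 for Casr, which did not. With 1 mouse left out the differences against the 12 β-cell markers ranged from -0.14 to 0.11 for Gipr, -0.069 to 0.099 for Gcgr, -0.32 to 0.014 for Gpr119, -0.36 to -0.17 for Galr1, -0.11 to -0.069 for Chrm3, -0.11 to 0.022 for Sstr3 and -0.43 to -0.18 for Casr. The ratio of Glp1r to Gipr ranged from -0.0047 to 0.19, Glp1r to Gcgr from -0.023 to 0.15 and Gipr to Gcgr from -0.14 to 0.014. With the longest coding transcript as length, 2 receptors changed rank, as Adra2a and Gipr traded places.

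Of all genes, 637 had an unadjusted p under 0.05. This number was 1098 with no filter on low counts, 372 with the acinar score, 1143 with Xist, 395 with the endothelial score and 383 to 1114 with 1 mouse left out. At an adjusted p under 0.05 there were 0 by edgeR, 8 by DESeq2, 1 by limma-voom and 1 with library totals only.

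In the signaling lists the number of genes at an unadjusted p under 0.05 moved as follows. Other receptors went from 4 to 7 with no filter, 0 with the endothelial score and 2 to 7 with 1 mouse left out. Ligands went from 1 to 2 by limma-voom and with the β-cell score, 3 with Xist and with library totals only, and 1 to 3 with 1 mouse left out. Accessory genes went from 1 to 0 by limma-voom, with at least 10 counts in every mouse, and with the acinar or endothelial score, to 2 with the β-cell score, and 0 to 1 with 1 mouse left out. G protein subunits went from 2 to 1 with at least 10 counts in every mouse and with the β-cell score, 0 with the endothelial score and 1 to 2 with 1 mouse left out. The cyclic AMP list went from 1 to 5 with Xist, 3 with the β-cell score and with library totals only, 2 with the endothelial score and 0 to 4 with 1 mouse left out. The phospholipase C list went from 2 to 1 with Xist and 0 to 2 with 1 mouse left out, and the arrestin list from 0 to 1 with the β-cell score and 0 to 1 with 1 mouse left out.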
